A study of Mus musculus with 16 samples.

Results

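The 44 genes described here encode the machinery that copies DNA and the regulators that start S phase, and they are followed across 16 mouse liver libraries. They were chosen by name as known replication and G1/S genes, with earlier results of these data known. All 44 were found among the 24970 genes of the deposited count table, each represented by its RefSeq transcript with the highest mean count. By role they comprise 11 genes of origin licensing, 6 of helicase activation, 6 of the polymerases and primase, 6 of the clamp, clamp loader and lagging strand, 4 of deoxynucleotide supply, 4 of chromatin copying and 7 of G1/S control and checkpoint.

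In dividing cells, origins of replication are licensed in G1, when the origin recognition complex, Cdc6 and Cdt1 load the Mcm2 to Mcm7 ring onto DNA, and the ring becomes an active helicase once Cdc45 and the GINS complex join it at the start of S phase. E2F transcription factors, held back by the retinoblastoma family until cyclin-dependent kinases act, drive many of the genes that encode this machinery. Hepatocytes of the adult liver rarely divide, but they enter the cell cycle after loss of tissue or after activation of the constitutive androstane receptor (CAR), the nuclear receptor that also controls Cyp2b genes.

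TCPOBOP, a synthetic agonist of mouse CAR, was given to wild-type C57BL/6 Ntac mice and to PXR-CAR-CYP3A4/3A7 humanized mice. Each strain had 4 mice on vehicle, labelled 2% DMSO in corn oil, and 4 on TCPOBOP at 3 mg/kg in 2 administrations 24 h apart, with a treatment time of 48 h. The humanized vehicle and humanized TCPOBOP groups thus share the replaced receptor and CYP3A genes, and they differ from the wild-type groups in the whole strain and not in CAR alone. Messenger RNA of whole liver was sequenced. The sources used here do not give age, sex, litter, the design of the humanized alleles or any batch.

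Depth did not match between the groups. Total counts were 30228724 to 37998473 in wild-type TCPOBOP libraries and 11827994 to 19483951 in the other 12. Mouse Nr1i3, which encodes CAR, averaged 100.2 ± 7.32 CPM in the wild-type controls and 2.20 ± 0.489 CPM in the humanized controls (CPM, counts scaled to library size with TMM factors; SD, n = 4), and Nr1i2, which encodes PXR, 136.4 ± 39.8 and 19.0 ± 1.24 CPM. The CAR target Cyp2b10 was higher after TCPOBOP in both strains, from 48.2 to 3197.2 CPM in wild-type (log2 difference 6.05, adjusted p = 2.44e-07) and from 17.4 to 105.1 CPM in humanized liver (2.59, adjusted p = 0.00434). The second wild-type vehicle library stood apart: among its group it held the highest value of 35 of the 44 replication and G1/S genes, and also the highest summed level of the Kupffer cell (925.2 CPM), sinusoidal endothelial, stellate cell, hepatocyte (93250.2 CPM) and dividing-cell (22.4 CPM) markers. Many results that rest on it, though not all, are given with and without it.

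TCPOBOP raised 39 replication and G1/S genes in wild-type liver and lowered 1, Mcm10. The median log2 difference of the 43 genes tested was 1.99, against -0.02 over all 12913 genes tested. Without the second wild-type vehicle library the median of the 43 was 2.34. Of all genes, 8.1% were called higher and 4.99% lower by the same edgeR quasi-likelihood test (Benjamini-Hochberg adjusted p under 0.05). Gins4, Pold1 and Tk1 did not pass, and Orc1 was too low to be tested. The difference was at least 2-fold, a log2 difference of 1 or more, for 38 genes and at least 4-fold for 21. In humanized liver none of the 43 passed.

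The filter on low counts bears on these numbers. Cdc6, Gins3, Uhrf1, Ccne1 and Clspn reached the test only through their counts in the wild-type TCPOBOP group, so that they could hardly fail to differ. Of the 38 genes that the other groups alone would have carried through the filter, 34 were higher and 1 lower. For 38 of the 43 tested genes every wild-type TCPOBOP library lay above every wild-type vehicle library, a pattern found in 12.5% of all genes, and for Mcm10 below, as in 8.4% of all genes. In 36 of the 43, the 4 wild-type TCPOBOP libraries lay above all 12 others, against 7.19% of all genes tested, and the untested Orc1 showed the same order. The p-values rest on the spread between mice within groups, estimated jointly over the 4 groups. In bulk liver, more cells in S phase and more of these transcripts per cell cannot be told apart.

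**Figure D1:**
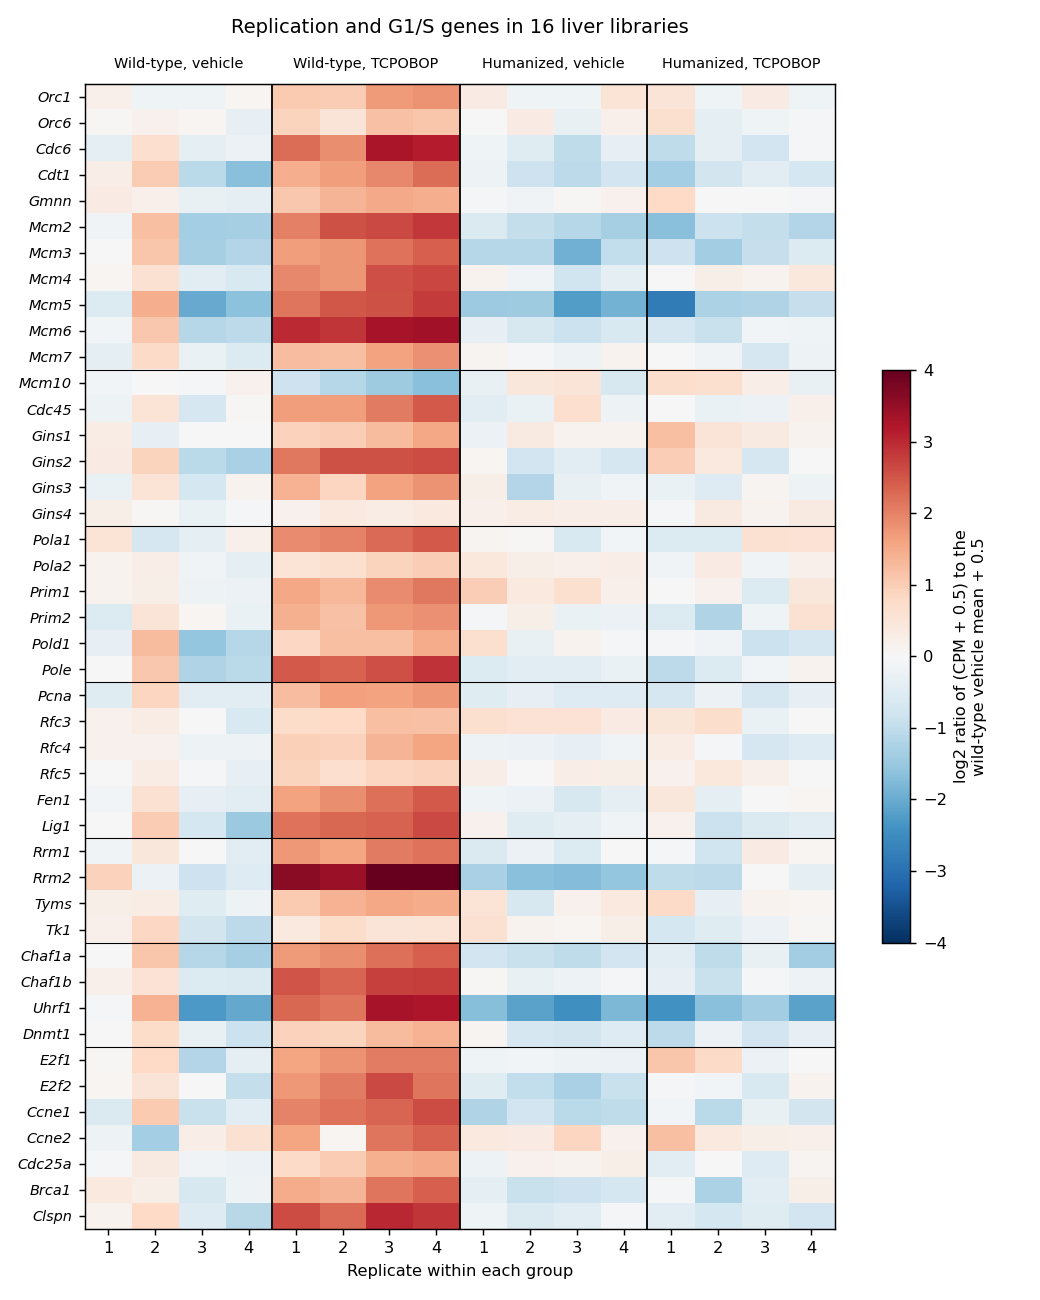
Level of each of the 44 genes (rows, grouped by role) in each of the 16 libraries (columns), as the log2 ratio of CPM + 0.5 to the mean of the 4 wild-type vehicle libraries + 0.5, with colours limited at -4 and 4. The wild-type TCPOBOP block is raised in every role group, Mcm10 is the exception within it, and the second wild-type vehicle library is the highest of its group for 35 genes.

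The 4 wild-type TCPOBOP livers differed in level among themselves. Summed over the 43 genes other than Mcm10, their level was 799.5, 844.0, 1083.6 and 1184.6 CPM in replicates 1 to 4. The corresponding wild-type vehicle sums were 255.5, 426.0, 165.1 and 153.3 CPM. The livers of replicates 3 and 4 both exceeded those of replicates 1 and 2 in 37 of the 43 tested genes, against 20.4% of all genes tested, and all 4 exceeded every vehicle liver in the sum. Over the same 4 livers the hepatocyte markers summed to 35385.7, 39014.1, 30287.3 and 25031.7 CPM and the erythroid markers to 189.5, 170.3, 91.4 and 94.6 CPM, lower in replicates 3 and 4; their part in this order was not tested. Humanized livers summed to 195.3 to 247.4 CPM under vehicle and 199.5 to 226.3 CPM under TCPOBOP, ranges that overlap. The 7 markers of dividing cells, among them Mki67, were also highest in wild-type TCPOBOP livers. Wild-type livers summed to 7.13 to 22.4 CPM on vehicle and 99.9 to 150.3 CPM on TCPOBOP, humanized livers to 6.05 to 11.7 and 7.22 to 12.8 CPM. In the wild-type comparison 7 of 7 were called higher, against 8.1% of all genes. How many of the 7 reached the test only through the wild-type TCPOBOP group was not determined.

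**Figure D2:**
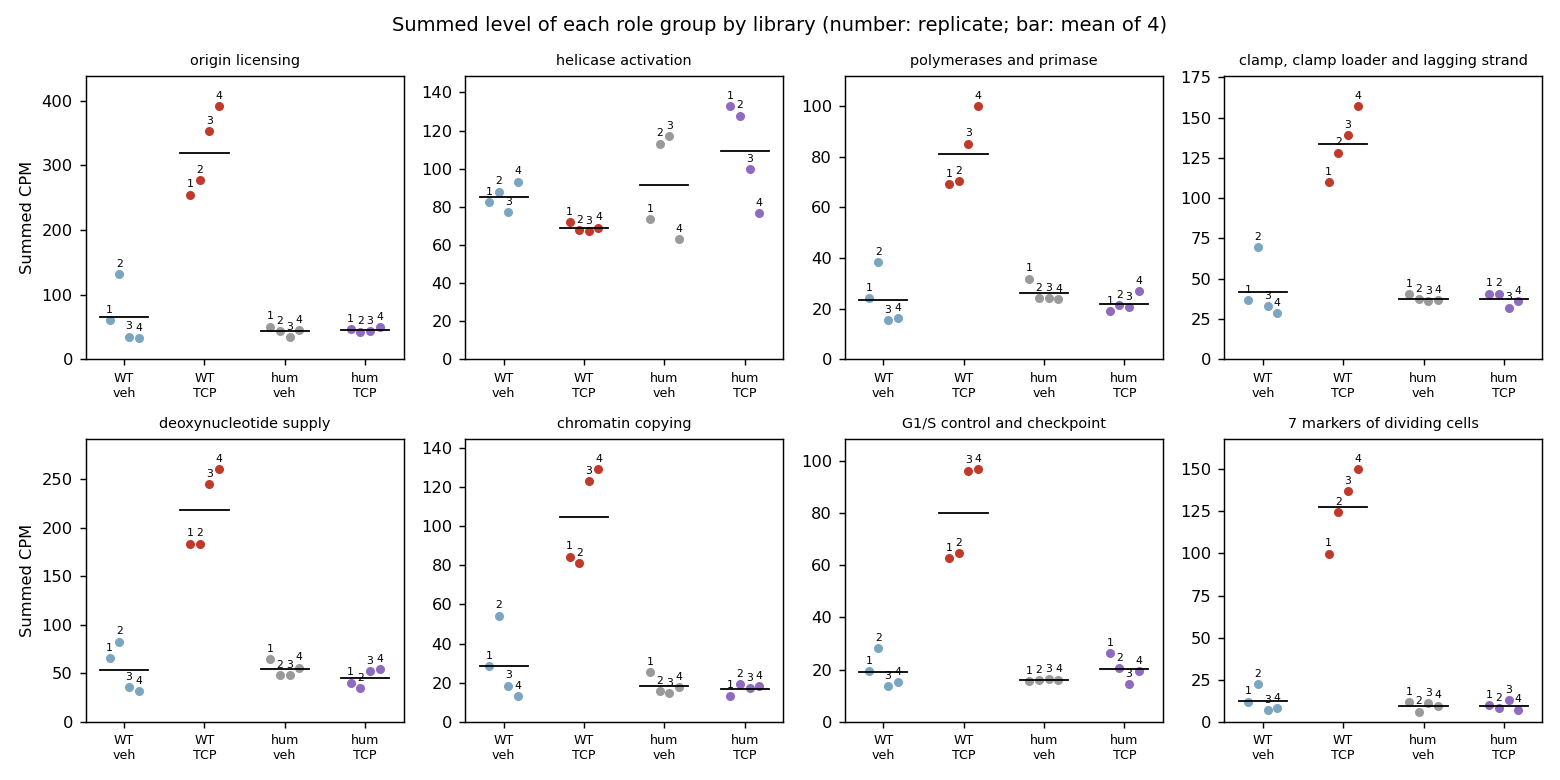
Summed CPM of each role group and of 7 markers of dividing cells, with 1 point for each library, its replicate number above it and a bar at the mean of 4 (WT, wild-type; hum, humanized; veh, vehicle; TCP, TCPOBOP). In 6 role groups all wild-type TCPOBOP libraries lie above all others; the helicase activation sum, which is dominated by Mcm10, lies at 77.1 to 93.2 CPM in wild-type controls and 67.0 to 72.0 CPM in treated wild-type livers.

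Levels of other cell types were also compared, since the libraries come from whole liver. In wild-type livers the 7 hepatocyte markers summed to 55192.4 to 93250.2 CPM under vehicle and 25031.7 to 39014.1 CPM under TCPOBOP, with 2 of 7 called lower. Alb, the most abundant of them, fell by 1.56 on the log2 scale (adjusted p = 0.000271). None of 10 Kupffer cell and macrophage, 8 sinusoidal endothelial, 8 stellate and 6 cholangiocyte markers, nor of 5 erythroid and 2 neutrophil markers tested, was called in this comparison, and of 3 lymphocyte markers tested 1 was lower. Differences were negative for 10 of 10 Kupffer cell, 7 of 8 endothelial and 7 of 8 stellate markers. They were negative for 5 of 6 cholangiocyte, 5 of 5 erythroid and 1 of 2 neutrophil markers, against 6708 of all 12913 genes. Cholangiocyte sums were apart, at 46.3 to 52.8 CPM under vehicle and 33.2 to 41.2 CPM under TCPOBOP. The Kupffer cell, endothelial, stellate, erythroid and neutrophil sums overlapped. All 8 lymphocyte markers together summed to 4.25 to 6.75 CPM under vehicle and 2.60 to 3.23 CPM under TCPOBOP. The part of these shifts in the result was not tested. With all libraries thinned to the depth of the smallest, 39 genes were again higher and 1 lower.

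The promoters of the gene with the smallest p in each role group are printed because the group rose together, and that of Mcm10 because it went the other way. Each runs 5′ to 3′ on the transcribed strand, from 250 bases before to 50 bases after the start that the RefSeq table for GRCm38.p6 (mm10) gives. They lie at chr1:128359656-128359955 (minus strand, Mcm6), chr16:18811923-18812222 (minus, Cdc45), chrX:93632106-93632405 (minus, Pola1), chr19:10204344-10204643 (minus, Fen1), chr12:24708004-24708303 (plus, Rrm2), chr16:93883651-93883950 (plus, Chaf1b), chr4:126556730-126557029 (plus, Clspn) and chr2:5012742-5013041 (minus, Mcm10). Capitals mark matches to the E2F motif on either strand.
Mcm6: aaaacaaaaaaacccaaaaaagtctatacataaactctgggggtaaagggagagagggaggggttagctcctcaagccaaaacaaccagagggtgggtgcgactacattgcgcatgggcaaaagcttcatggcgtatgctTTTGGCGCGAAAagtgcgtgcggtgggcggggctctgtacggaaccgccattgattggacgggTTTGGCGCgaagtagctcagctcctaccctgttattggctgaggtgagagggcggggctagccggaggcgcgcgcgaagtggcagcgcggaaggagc
Cdc45: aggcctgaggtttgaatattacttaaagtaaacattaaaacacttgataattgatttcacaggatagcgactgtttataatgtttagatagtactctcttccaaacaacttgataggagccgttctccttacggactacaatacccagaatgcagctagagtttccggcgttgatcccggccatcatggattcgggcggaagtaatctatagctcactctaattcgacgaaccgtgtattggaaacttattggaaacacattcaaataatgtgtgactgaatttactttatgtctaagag
Pola1: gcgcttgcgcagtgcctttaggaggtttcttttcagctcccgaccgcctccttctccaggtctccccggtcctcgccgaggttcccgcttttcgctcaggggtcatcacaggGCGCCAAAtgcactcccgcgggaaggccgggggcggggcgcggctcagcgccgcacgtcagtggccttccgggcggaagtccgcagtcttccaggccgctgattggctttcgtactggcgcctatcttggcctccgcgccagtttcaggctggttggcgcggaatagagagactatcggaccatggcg
Fen1: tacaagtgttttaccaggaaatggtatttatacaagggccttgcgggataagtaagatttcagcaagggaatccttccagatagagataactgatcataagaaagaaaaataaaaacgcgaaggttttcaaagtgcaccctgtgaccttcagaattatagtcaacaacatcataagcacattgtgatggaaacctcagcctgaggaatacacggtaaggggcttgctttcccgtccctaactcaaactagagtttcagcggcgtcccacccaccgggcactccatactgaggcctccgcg
Rrm2: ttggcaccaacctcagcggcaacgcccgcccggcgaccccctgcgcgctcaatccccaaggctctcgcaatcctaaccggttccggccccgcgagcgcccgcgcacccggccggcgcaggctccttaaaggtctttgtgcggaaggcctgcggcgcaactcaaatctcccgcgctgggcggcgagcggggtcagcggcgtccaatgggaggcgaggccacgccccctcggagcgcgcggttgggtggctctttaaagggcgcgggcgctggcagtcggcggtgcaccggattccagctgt
Chaf1b: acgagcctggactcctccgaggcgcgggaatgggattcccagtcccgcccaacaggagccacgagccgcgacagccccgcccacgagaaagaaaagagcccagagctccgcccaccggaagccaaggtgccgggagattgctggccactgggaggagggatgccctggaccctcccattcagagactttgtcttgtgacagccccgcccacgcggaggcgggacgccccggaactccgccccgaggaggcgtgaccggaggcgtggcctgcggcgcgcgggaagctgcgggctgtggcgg
Clspn: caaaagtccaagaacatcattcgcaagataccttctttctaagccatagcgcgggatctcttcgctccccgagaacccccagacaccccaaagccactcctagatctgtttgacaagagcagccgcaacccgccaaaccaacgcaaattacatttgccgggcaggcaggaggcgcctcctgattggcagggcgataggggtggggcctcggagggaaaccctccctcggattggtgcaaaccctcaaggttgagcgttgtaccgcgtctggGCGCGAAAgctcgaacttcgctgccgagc
Mcm10: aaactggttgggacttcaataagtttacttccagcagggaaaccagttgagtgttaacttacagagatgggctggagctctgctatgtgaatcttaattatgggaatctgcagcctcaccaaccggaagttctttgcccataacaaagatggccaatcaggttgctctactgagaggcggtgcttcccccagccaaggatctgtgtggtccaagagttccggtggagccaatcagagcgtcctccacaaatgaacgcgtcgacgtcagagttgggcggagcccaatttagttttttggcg

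In these 8 windows the E2F motif was found 3 times in Mcm6 and once each in Pola1 and Clspn, and not in the other 5. The motif was searched as TTTCGCGC, TTTGGCGC, TTTCCCGC or TTTGCCGC on both strands, and 2 of the Mcm6 matches overlap on opposite strands. Promoters were in the table for 36 of the 44 genes, and 14 of these, or 38.9%, held at least 1 match. The share was 2.33% of all 27025 promoters of the table and 4.12% of the 10226 promoters of genes tested here. The list was made of known replication genes, many of which are known E2F targets, so the share describes the list and tests nothing.

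The CCAAT box, searched as CCAAT on both strands, was in 23 of the 36 promoters, or 63.9%, against 38.0% of all. In Mcm10 it occurred 3 times. The DR4 element, the direct repeat that CAR can bind with RXR, matched none of the 36 windows and 7 of the 27025. The absence of a match says only that these letters are not in these windows. The start in the table differed by over 50 bases from the annotated outer edge of the gene for 7 of the 36, Pola1 among them. The start of the counted transcript itself was not looked up.

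**Figure D3:**
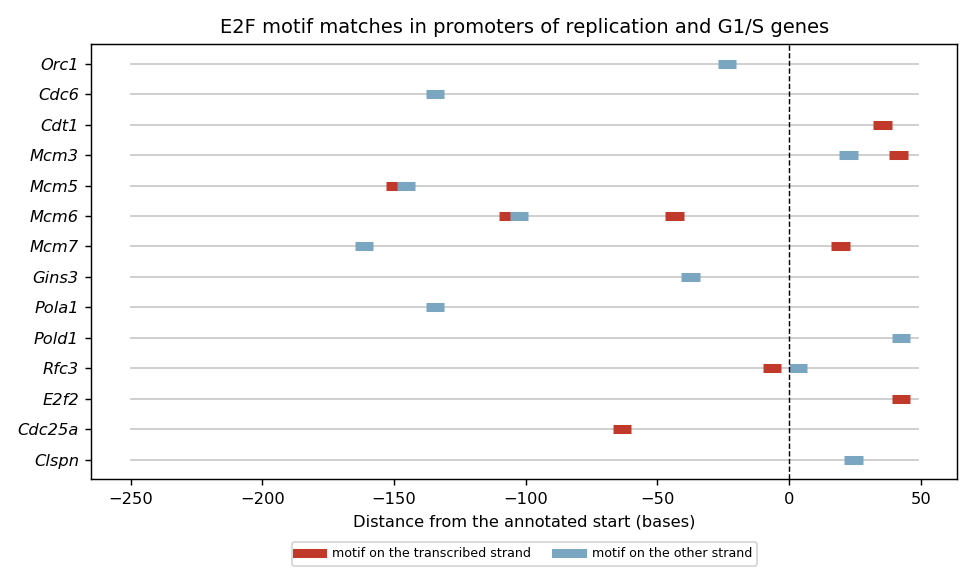
Positions of the E2F motif in the 14 promoters that held it, as distance in bases from the annotated start, red on the transcribed and blue on the other strand; grey lines show the 300 bases searched. The matches lie on both sides of the start, and 5 genes hold 2 or more.

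Responses to TCPOBOP in wild-type liver are given by motif, and their difference was not tested. Of the 13 tested genes with a match, 12 rose, with a median log2 difference of 2.09. Cdc6, Gins3 and Clspn among them reached the test only through the wild-type TCPOBOP group. Of the 22 tested genes without a match, 20 rose and Mcm10 fell, with a median of 1.97. Uhrf1 and Ccne1 among these reached the test only through that group. Among genes outside the list, 13.5% of 408 with a match and 7.58% of 9783 without one were called higher.

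Origin licensing rose in all 10 tested genes in wild-type liver, with a median log2 difference of 2.25. Among them, Cdc6 reached the test only through its counts in the wild-type TCPOBOP group. Mcm6, a subunit of the ring helicase (chromosome 1, 128331575 to 128359705, mm10), was at 7.04, 16.7, 3.19 and 3.45 CPM in the vehicle livers and 63.1, 58.0, 78.2 and 82.2 CPM in the TCPOBOP livers. The lowest treated liver was far above the highest control, which was the second library. The log2 difference was 3.21 ± 0.39 (SE; adjusted p = 2.35e-05), and 3.99 ± 0.29 without the second vehicle library.

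Mcm4, another subunit of the ring, was at 4.98, 7.51, 3.38 and 2.91 CPM under vehicle and 19.3, 17.2, 30.4 and 32.8 CPM under TCPOBOP (2.41 ± 0.30, adjusted p = 2.55e-05). All treated livers exceeded all controls. Cdc6, the ATPase that helps load the ring, rose from 0.293, 1.14, 0.281 and 0.363 CPM to 4.27, 3.22, 9.30 and 8.47 CPM (3.54 ± 0.53, adjusted p = 0.000146), and by 4.28 ± 0.58 without the second vehicle library. Gmnn, whose product geminin binds Cdt1 and blocks a further round of licensing, was at 6.45, 5.89, 4.03 and 3.73 CPM and at 11.1, 13.6, 15.2 and 14.7 CPM (1.45 ± 0.23, adjusted p = 0.000318). The inhibitor thus rose along with the loader it restrains, Cdt1, whose log2 difference was 1.96 ± 0.45 (adjusted p = 0.00589; 2.73 without the second vehicle library).

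The other ring subunits rose as well. The second vehicle library was highest in each of them: Mcm5 was at 25.7 CPM there against 1.88 to 6.01 CPM in the other 3, and at 41.8 to 65.1 CPM under TCPOBOP. Its log2 difference was 2.57 ± 0.57 (adjusted p = 0.00513) with that library and 4.02 ± 0.41 without it. Mcm2 differed by 2.60 ± 0.45 (adjusted p = 0.000565) with it and 3.55 without it, and Mcm3 by 2.09 ± 0.42 (adjusted p = 0.00228) with it and 2.90 without it. Mcm7 differed by 1.52 ± 0.26 (adjusted p = 0.000504).

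The ring holds its 6 subunits in equal number, and their transcripts were compared per length. In mean CPM per kb of transcript, the 6 genes spanned 1.31 to 4.60 in control and 6.93 to 16.2 in treated wild-type livers. In humanized livers they spanned 0.714 to 4.63 on vehicle and 0.928 to 3.89 on TCPOBOP. The ratio of the highest to the lowest subunit was 3.51, 2.34, 6.48 and 4.19 in these groups, in the same order. These ratios are given without a test.

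Orc6, a subunit of the origin recognition complex, rose from 2.18 to 3.23 CPM under vehicle to 4.29 to 6.96 CPM under TCPOBOP (1.06 ± 0.26, adjusted p = 0.0111). Orc1, an ATP-binding subunit of that complex, stayed under the filter of about 1.04 CPM for 4 libraries and was not tested. It was at 0.147, 0, 0 and 0.0909 CPM in wild-type controls and 0.656, 0.626, 1.31 and 1.44 CPM in treated wild-type livers. Humanized livers held 0 to 0.313 CPM on vehicle and 0 to 0.295 CPM on TCPOBOP. The wild-type TCPOBOP values do not overlap with the others.

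Helicase activation was the group in which genes parted: 4 of 6 rose, Gins4 did not pass and Mcm10 fell. Of the 4, Gins3 reached the test only through its counts in the wild-type TCPOBOP group. Mcm10, which binds the loaded helicase and is needed for it to unwind DNA (chromosome 2, 4990724 to 5012791, minus strand), was at 61.3, 66.9, 63.1 and 76.2 CPM in the wild-type vehicle livers. Under TCPOBOP it was at 37.5, 29.8, 24.9 and 20.5 CPM. Every treated liver lay below every control, and the fourth, in which the other genes summed highest, was the lowest. The log2 difference was -1.25 ± 0.27 (adjusted p = 0.00387), and between -1.42 and -1.12 in all 25 settings tried.

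In humanized livers Mcm10 was at 54.1, 92.6, 95.2 and 42.5 CPM under vehicle and 109.3, 104.8, 80.0 and 54.2 CPM under TCPOBOP. These ranges overlap, and the difference of 0.29 ± 0.26 did not pass (adjusted p = 0.613). Among the 44 genes Mcm10 stood second in CPM per kb in wild-type vehicle livers, at 13.7, after Tk1 at 22.4, and 23rd in wild-type TCPOBOP livers, at 5.79. No exon of another annotated gene overlaps it. Its neighbour Optn, upstream on the same strand, was at 48.9 to 89.5 CPM under vehicle and 44.9 to 59.0 CPM under TCPOBOP in wild-type liver. In humanized liver Optn was at 61.9 to 81.4 CPM under vehicle and 88.8 to 107.9 CPM under TCPOBOP.

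Of the partners that complete the active helicase, Cdc45, Gins1, Gins2 and Gins3 rose in wild-type liver, and Gins4 did not pass. Cdc45 was at 1.47, 2.85, 0.938 and 1.82 CPM in the wild-type controls and 6.67, 6.66, 9.11 and 11.9 CPM after TCPOBOP (2.26 ± 0.34, adjusted p = 0.000158). Gins2, of the GINS complex, was at 1.32, 2.19, 0.188 and 0.0909 CPM and at 5.80, 7.87, 7.95 and 8.28 CPM (3.01 ± 0.56, adjusted p = 0.00128; 4.04 without the second vehicle library). For both genes the groups were fully apart. An exon of Gse1 on the opposite strand covers 67.3% of the exon bases of Gins2, and the sources used here do not say whether the counts use strand.

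Gins1 rose from 2.09 to 3.52 CPM to 5.69 to 9.05 CPM (1.35 ± 0.27, adjusted p = 0.00214), and Gins3 from 0.188 to 1.14 CPM to 1.52 to 3.37 CPM (1.99 ± 0.49, adjusted p = 0.0103). The fourth subunit of the complex differed: Gins4 was at 9.94 to 14.4 CPM and 13.9 to 16.1 CPM, ranges that overlap, with a log2 difference of 0.33 ± 0.16 (adjusted p = 0.201) that passed in none of the 25 settings. Its humanized groups were at 14.1 to 15.1 and 11.8 to 15.9 CPM.

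**Figure D4:**
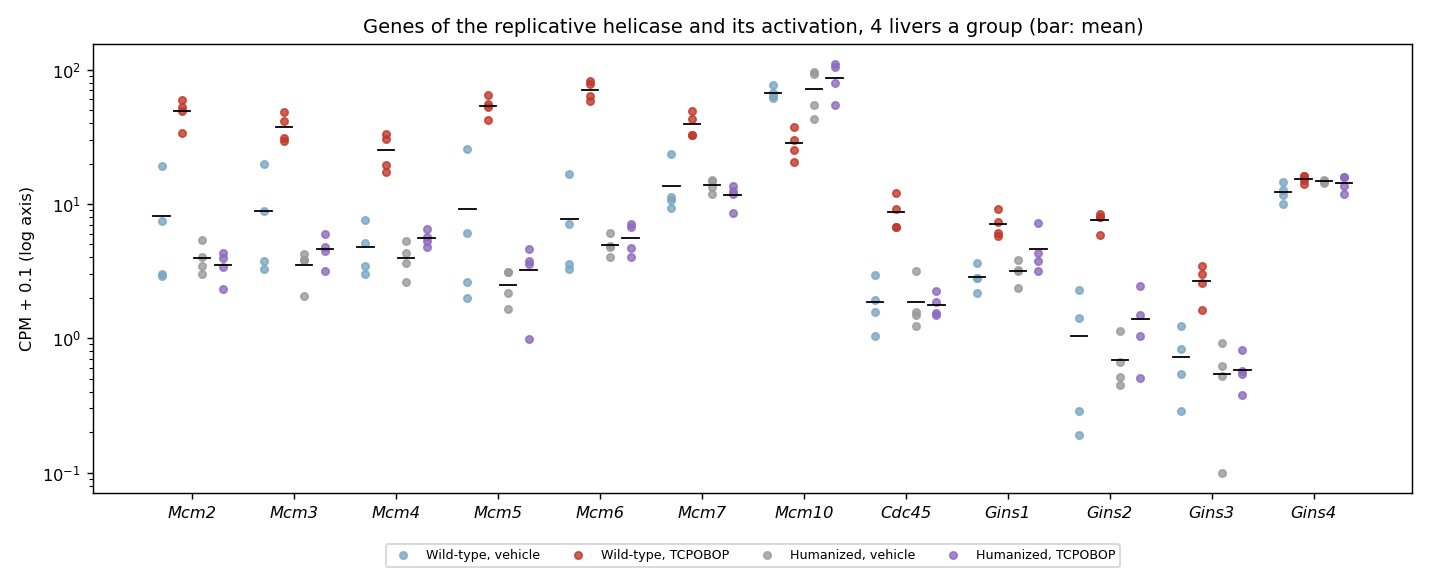
CPM + 0.1 on a log axis of the 6 ring subunits, Mcm10, Cdc45 and the 4 GINS genes, with 1 point for each of 4 livers a group and a bar at the mean. Wild-type TCPOBOP livers (red) lie above the rest for the ring, Cdc45, Gins2 and Gins3, overlap with 1 humanized TCPOBOP liver for Gins1 (7.08 CPM) and with other groups for Gins4, and lie lowest for Mcm10.

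The polymerases and primase rose in 5 of 6 genes. Pola1, the catalytic subunit of polymerase alpha that extends primers (chromosome X, 93304766 to 93632387), was at 4.98, 1.90, 2.44 and 3.82 CPM under vehicle and 13.5, 14.4, 17.6 and 20.2 CPM under TCPOBOP in wild-type liver (2.34 ± 0.33, adjusted p = 9.14e-05). Prim1, the catalytic subunit of primase, was at 3.23, 3.52, 2.44 and 2.36 CPM and at 9.41, 7.95, 12 and 14 CPM (1.91 ± 0.27, adjusted p = 9.31e-05). The second vehicle library was the lowest of its group for Pola1, and the groups did not overlap for either gene.

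Pole, the leading-strand polymerase, was at 3.23, 7.41, 1.13 and 1.27 CPM and at 20.1, 18.6, 22.0 and 27.5 CPM (2.76 ± 0.42, adjusted p = 0.000202; 3.64 without the second vehicle library). Prim2, the regulatory subunit of primase, rose from 1.17 to 2.95 CPM to 5.01 to 8.18 CPM (1.76 ± 0.36, adjusted p = 0.00238), and Pola2 from 4.72 to 7.60 CPM to 9.30 to 12.6 CPM (0.82 ± 0.19, adjusted p = 0.00714). Pold1, the catalytic subunit of the lagging-strand polymerase, was at 4.69, 15, 1.69 and 2.45 CPM under vehicle and 11, 14.4, 14.3 and 17.7 CPM under TCPOBOP. Its second control was above 3 of the 4 treated livers, and the gene did not pass (1.26 ± 0.46, adjusted p = 0.0847). Without that library the difference was 2.34 ± 0.33 (adjusted p = 0.000105), and it passed in 3 of the 25 settings.

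The clamp, its loader and the lagging-strand enzymes rose in 6 of 6 genes. Fen1, the nuclease that trims Okazaki fragments (chromosome 19, 10199132 to 10204393), was at 4.25, 7.41, 3.56 and 3.36 CPM under vehicle and 15.1, 18.1, 23.1 and 27.6 CPM under TCPOBOP in wild-type liver (2.17 ± 0.27, adjusted p = 2.59e-05). Lig1, the ligase that seals them, was at 4.98, 10.5, 2.81 and 1.45 CPM and at 23.8, 26.1, 27.3 and 33.4 CPM (2.49 ± 0.40, adjusted p = 0.000304; 3.22 without the second vehicle library). Controls and treated livers were fully apart in both. The antisense gene Gm10143 covers 78.8% of the exon bases of Fen1, so that their reads cannot be told apart without strand.

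Pcna, the sliding clamp, was at 13.5, 35.2, 14.1 and 13.8 CPM under vehicle and 45.8, 60.5, 58.9 and 64.6 CPM under TCPOBOP (1.58 ± 0.26, adjusted p = 0.000376). Apart from the second library, the controls lay within 13.5 to 14.1 CPM. Of the clamp loader, Rfc4 rose from 2.16 to 2.95 CPM to 5.27 to 8.66 CPM (1.40 ± 0.26, adjusted p = 0.00108). Rfc3 and Rfc5 differed by 1.08 ± 0.25 (adjusted p = 0.00695) and 0.89 ± 0.18 (adjusted p = 0.00224).

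Among the enzymes of deoxynucleotide supply, 3 of 4 rose. Rrm2, the small subunit of ribonucleotide reductase that is made in S phase (chromosome 12, 24708254 to 24714146), was at 15, 6.46, 4.13 and 5.18 CPM in the wild-type controls and 99.3, 88.4, 144.2 and 156.6 CPM after TCPOBOP. Here the first control, not the second, was the highest. The difference of 4.02 ± 0.36 (adjusted p = 7.24e-07), a 16.2-fold rise, was the largest of the 43 genes tested when all libraries were fitted, whereas without the second vehicle library Uhrf1 was at 4.53. Per kb of transcript Rrm2 went from the 8th to the first place among the 44.

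Rrm1, the large subunit, was at 8.21, 12.8, 9.19 and 6.54 CPM and at 31.9, 28.6, 40.2 and 43.1 CPM (1.96 ± 0.25, adjusted p = 3.88e-05). Tyms, thymidylate synthase, was at 5.57, 5.80, 3.19 and 4.00 CPM and at 10.1, 12.9, 14.5 and 13.8 CPM (1.47 ± 0.29, adjusted p = 0.00171). Treated and control livers were apart for both. Tk1, the thymidine kinase of the salvage pathway, was at 36.9, 57.6, 19.3 and 15.4 CPM and at 42.4, 54.0, 46.1 and 47.3 CPM, so that the second control exceeded every treated liver. It did not pass (0.56 ± 0.30, adjusted p = 0.271), and passed without that library (1.00 ± 0.25, adjusted p = 0.0109).

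Chromatin copying rose in 4 of 4 genes, of which Uhrf1 reached the test only through its counts in the wild-type TCPOBOP group. Chaf1b, a subunit of the histone chaperone CAF-1 that sets nucleosomes on new DNA (chromosome 16, 93883900 to 93906115), was at 2.35, 3.23, 1.22 and 1.18 CPM under vehicle and 13.7, 11.9, 16.1 and 16.6 CPM under TCPOBOP (2.88 ± 0.30, adjusted p = 3.58e-06). Chaf1a, its large subunit, was at 3.96, 8.93, 1.5 and 1.27 CPM and at 14, 15.5, 19.7 and 22.8 CPM (2.20 ± 0.44, adjusted p = 0.002; 3.08 without the second vehicle library). In both the groups were apart, and an opposite-strand gene, Ubxn6, covers 52.5% of the exon bases of Chaf1a.

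Uhrf1, which recognizes half-methylated DNA behind the fork, was at 3.52, 10.7, 0.375 and 0.545 CPM and at 20.5, 18.5, 41.6 and 39.9 CPM (2.99 ± 0.63, adjusted p = 0.00345; 4.53 without the second vehicle library). Dnmt1, the maintenance methyltransferase that Uhrf1 recruits, was at 18.5, 31.4, 15.4 and 10.2 CPM and at 36.3, 35.3, 45.6 and 49.9 CPM (1.15 ± 0.29, adjusted p = 0.0118). Both rose without overlap of the groups, and the first and second controls were the highest in each.

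G1/S control and checkpoint genes rose in 7 of 7, of which Clspn and Ccne1 reached the test only through the wild-type TCPOBOP group. Clspn, whose product claspin relays the signal of stalled forks to the kinase Chk1 (chromosome 4, 126556957 to 126594533), was at 0.880, 1.71, 0.375 and 0.0909 CPM under vehicle and 7.22, 5.54, 9.72 and 8.76 CPM under TCPOBOP (3.36 ± 0.45, adjusted p = 5.22e-05; 4.26 without the second vehicle library). E2f2, an activating E2F factor, was at 2.93, 4.18, 2.81 and 1.18 CPM and at 10.3, 13.4, 19.8 and 14 CPM (2.37 ± 0.32, adjusted p = 5.78e-05). In neither gene did the groups overlap. E2f1, another activating E2F factor, differed by 1.98 ± 0.35 (adjusted p = 0.000823).

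Ccne1, the cyclin E that activates Cdk2 at S-phase entry, was at 0.586, 2.85, 0.375 and 0.727 CPM and at 6.02, 6.79, 7.67 and 9.57 CPM (2.68 ± 0.44, adjusted p = 0.000353; 3.72 without the second vehicle library). Brca1, which protects and repairs broken forks, was at 3.23, 2.85, 1.31 and 2.00 CPM and at 7.44, 6.75, 12.1 and 14.5 CPM (2.14 ± 0.35, adjusted p = 0.000376). Both were fully apart. Cdc25a, the phosphatase that activates Cdk2, differed by 1.29 ± 0.23 (adjusted p = 0.000889).

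Ccne2, the other cyclin E, was the only gene called higher whose groups overlapped. It was at 1.47, 0.380, 2.25 and 3.00 CPM under vehicle and 6.34, 1.88, 9.54 and 11.2 CPM under TCPOBOP, and the second library was the lowest of each group. Its difference of 2.00 ± 0.51 (adjusted p = 0.0125) became 1.72 ± 0.53 (adjusted p = 0.0538) without the fourth TCPOBOP library, and it also missed the threshold when only the 2 groups compared were fitted (adjusted p = 0.0585).

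In humanized liver TCPOBOP called none of the 43 tested genes, while 2.51% of all genes passed, 1.32% higher and 1.19% lower. DESeq2 called 1 of the 43, and 770 of all genes. The edgeR quasi-likelihood test gave 2 of the 43 an unadjusted p under 0.05, against 2310 of all 12913 genes. The median log2 difference was 0.03, against 0.02 over all genes, and 40 of 43 lay between -1 and 1. For 24 genes the upper bound of the 95% interval was under a log2 difference of 1, so a rise of 2-fold lay outside it; for the others the interval was wider.

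**Figure D5:**
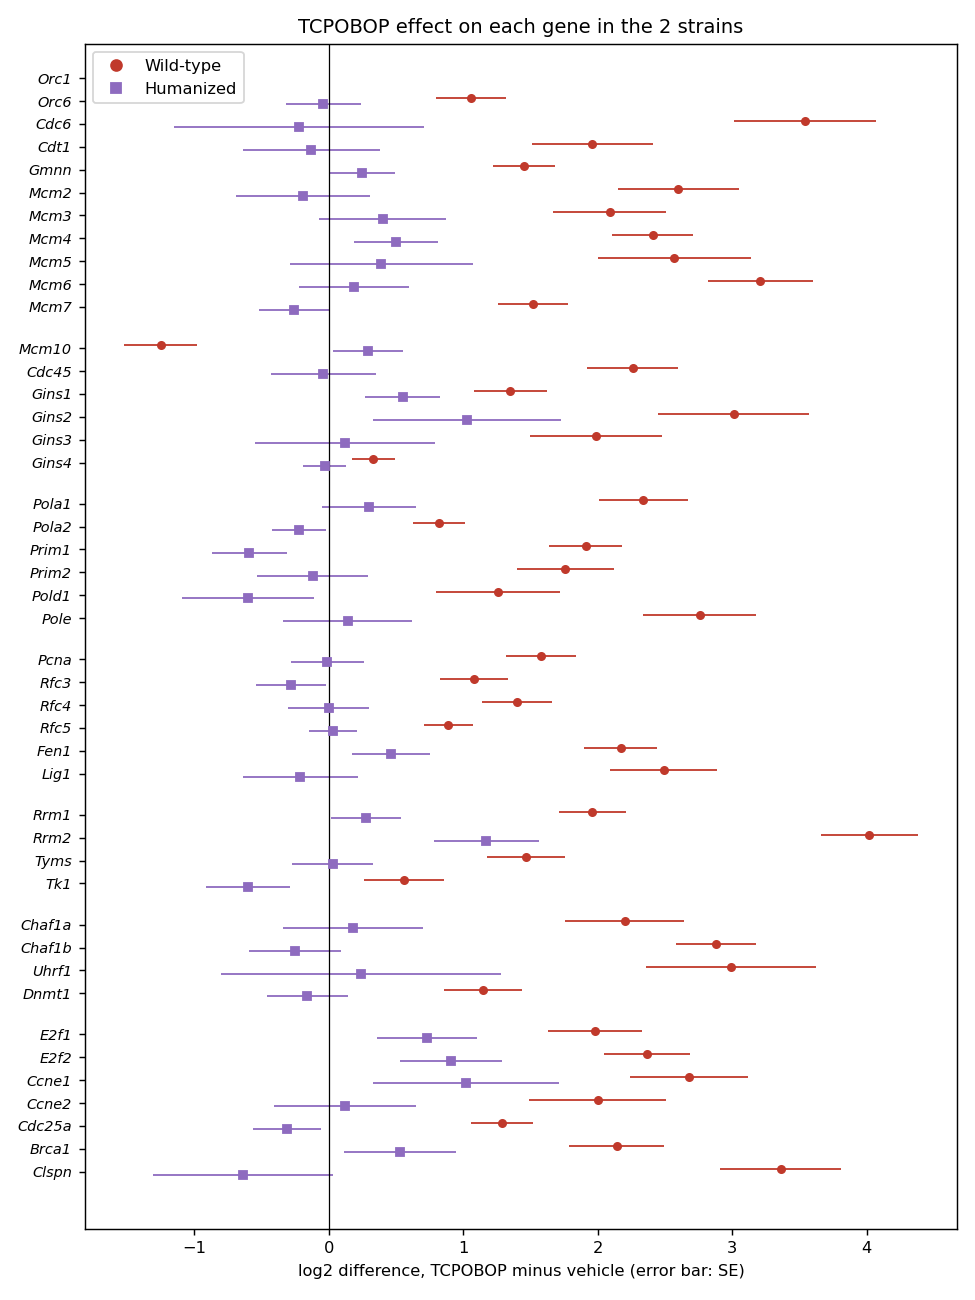
log2 difference between TCPOBOP and vehicle, with its SE, for each gene by role, in wild-type (red circles) and humanized liver (purple squares); Orc1 was not tested. Wild-type values run from -1.25 (Mcm10) to 4.02 (Rrm2), and humanized values from -0.64 to 1.17.

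The gene with the largest humanized difference was again Rrm2, at 2.80, 2.09, 1.96 and 2.29 CPM under vehicle and 3.54, 3.48, 7.57 and 5.92 CPM under TCPOBOP. All 4 treated livers were above all controls, where 9.95% of all genes had groups without overlap and 4.6% had them in this direction, but the difference of 1.17 ± 0.39 did not pass (adjusted p = 0.119). It passed with DESeq2 and without the first wild-type vehicle library (adjusted p = 0.0497). Tk1 was the opposite case, at 49.1, 35.8, 34.3 and 37.9 CPM under vehicle and 19.8, 22.9, 27.6 and 33.4 CPM under TCPOBOP, all lower, as in 5.35% of all genes, and not called (-0.60 ± 0.31, adjusted p = 0.323).

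Markers of other cells varied between the humanized TCPOBOP livers. In replicates 1 to 4 the sinusoidal endothelial markers summed to 128.2, 151.5, 356.8 and 339.5 CPM, the stellate cell markers to 94.6, 77.2, 157.0 and 213.9 CPM and the Kupffer cell and macrophage markers to 242.2, 272.4, 553.5 and 452.5 CPM. Replicates 3 and 4 were the higher pair in all 3 sums. They were also the higher pair for Rrm2 and Mcm6, and the lower pair for Mcm10 and Cdkn1a. These genes were named for this order, and how many share it was not counted. Of the 44 genes, 16 were highest in replicate 1, 6 in replicate 2, 9 in replicate 3 and 13 in replicate 4. The part of the marker shifts in the values was not tested.

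For Mcm6 and Pcna the humanized groups overlapped. Mcm6 was at 6.01, 4.65, 3.92 and 4.80 CPM under vehicle and 4.57, 3.90, 6.96 and 6.63 CPM under TCPOBOP (0.19 ± 0.41, adjusted p = 0.862). Pcna was at 13.6, 15.1, 13.3 and 13.3 CPM and at 11.8, 16.2, 11.9 and 15 CPM, with a 95% interval of the log2 difference from -0.57 to 0.55. Among the G1/S genes E2f2 came closest, from 0.84 to 1.86 CPM to 1.64 to 3.08 CPM (0.91 ± 0.38, adjusted p = 0.21).

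The difference between the strains' responses was tested by the interaction, the humanized minus the wild-type log2 effect. It was lower for 24 of the 43 genes and higher for 1, Mcm10, where 7.46% of all genes were called, 3.98% lower and 3.48% higher, and 18 genes did not pass. The median was -1.78, against 0 over all genes. By role, 6 of 10 licensing genes, 5 of 6 polymerase and primase genes, 6 of 6 clamp and lagging-strand genes and 3 of 4 deoxynucleotide genes were lower, as were 1 of 6 helicase activation, 1 of 4 chromatin and 2 of 7 G1/S genes. Differences between the role groups were not tested, and without the second wild-type vehicle library Chaf1a, Uhrf1, Dnmt1, E2f1, E2f2 and Ccne1 were called lower too. Of the 38 genes that passed the filter without the wild-type TCPOBOP group, 22 were lower and 1 higher.

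The largest interaction was that of Clspn, at -4.0 ± 0.81 (adjusted p = 0.00528), followed by Cdc6 at -3.76 (95% interval -6.11 to -1.40, adjusted p = 0.0483); both reached the test only through the wild-type TCPOBOP group, which favours a negative value. Chaf1b was at -3.13 ± 0.45 (adjusted p = 0.000436), Mcm6 at -3.02 ± 0.56 (adjusted p = 0.00281) and Rrm2 at -2.85 ± 0.52 (adjusted p = 0.00256). Mcm10 stood alone on the other side, at 1.54 ± 0.38 (adjusted p = 0.017). The negative values mean a lower response in humanized liver, and for Mcm10 the fall was seen in wild-type liver.

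The second wild-type vehicle library weighed on this test too. Without it 36 genes were lower and 1 higher, and without the third or the fourth wild-type vehicle library 16 were lower. In each of the 24 settings in which they were fitted, 17 genes were called: Mcm2, Mcm4, Mcm6, Mcm7, Mcm10, Cdc45, Pola1, Prim1, Pole, Pcna, Fen1, Lig1, Rrm1, Rrm2, Chaf1b, Cdc25a and Clspn. Calls of the other 8 were lost without 1 or another library, Cdc6 among them, whose adjusted p ranged from 0.00686 to 0.168. Mcm5, whose wild-type rise was among the larger ones, did not pass (-2.18 ± 0.88, adjusted p = 0.151) and passed without that library.

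Under vehicle, 5 of the 43 genes were lower in humanized than in wild-type liver and none was higher, where 16.1% of all genes were called, 8.95% lower and 7.11% higher, so the share was near the background. Rrm2 was at 4.13 to 15 CPM in wild-type and 1.96 to 2.80 CPM in humanized vehicle livers, fully apart (-1.70 ± 0.38, adjusted p = 0.0115). The other 4 overlapped: Mcm3 differed by -1.36 ± 0.45 (adjusted p = 0.0495), Mcm5 by -1.89 ± 0.63 (adjusted p = 0.0498), Uhrf1 by -2.65 ± 0.83 (adjusted p = 0.0381) and Ccne1 by -1.85 ± 0.62 (adjusted p = 0.0488). Without the second wild-type vehicle library these 4 did not pass, at -0.56, -0.45, -1.11 and -0.82, and Pold1 was called higher (1.22, adjusted p = 0.0252). Each of the 4 also lost its call when any of several other libraries was left out. In the same comparison 7 of 10 Kupffer cell and macrophage markers were lower, summing to 470.2 to 925.2 CPM in wild-type and 246.5 to 426.2 CPM in humanized livers. Of the sinusoidal endothelial markers 2 of 8 were lower (median log2 difference of the 8, -1.03), of the stellate cell markers 3 of 8 and of the erythroid markers tested 3 of 5. The part of these shifts in the differences was not tested.

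Genes of neighbouring steps, from lists of 101 further genes, were partly raised in wild-type liver. Of 31 other replication factors tested, 14 rose and none fell, with a median log2 difference of 0.58. Over all genes 8.1% rose and 4.99% fell, with a median of -0.02, and the counts of each list below stand beside these shares. They included Topbp1, which helps fire origins (1.48 ± 0.20, adjusted p = 7.41e-05), Dbf4, the activator of the Cdc7 kinase (1.84 ± 0.29, adjusted p = 0.000238), and Rpa2, of the complex that coats single strands (1.86 ± 0.30, adjusted p = 0.000298). Of 14 other genes of nucleotide synthesis, 4 rose, Ctps, Dtymk and Dut among them (2.13 ± 0.23, 0.99 ± 0.18 and 1.06 ± 0.20, with adjusted p of 6.84e-06, 0.000812 and 0.00154). Most of the rest of these lists did not pass. How many of the further genes reached the test only through the wild-type TCPOBOP group was not determined.

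Of 26 other G1/S regulators, 13 rose and none fell. The first by p were Cdkn2c, an inhibitor of Cdk4 and Cdk6 (2.12 ± 0.24, adjusted p = 8.44e-06), Rbl1, a member of the retinoblastoma family (2.23 ± 0.32, adjusted p = 0.000109), and Ccna2, the cyclin of S phase (2.67 ± 0.40, adjusted p = 0.000179). Cdkn2c and Rbl1, which hold back the cycle, thus rose beside Ccna2, which drives it. They were picked by p, and of the 26 genes 13 did not pass and 5 had negative differences. Histone supply and chromatin assembly rose in 6 of 11 genes. The first by p was Hells, a chromatin remodeller, which went from 0.586, 0.190, 0.563 and 0.545 CPM to 10.2, 5.68, 14.8 and 16.6 CPM (4.64 ± 0.44, adjusted p = 1.21e-06). Its wild-type vehicle values lay under the filter of about 1.04 CPM. Hat1 (1.69 ± 0.22, adjusted p = 4.5e-05) and Asf1b (2.91 ± 0.49, adjusted p = 0.000459) followed.

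Fork protection and repair rose in 12 of 18 genes. Chek1, the checkpoint kinase that claspin serves, differed by 4.08 ± 0.51 (adjusted p = 2.55e-05) and Atr, the kinase above it, by 2.20 ± 0.23 (adjusted p = 4.05e-06). In humanized liver 1 gene of these 5 lists passed, the cyclin-dependent kinase inhibitor Cdkn1a, a share no higher than the 2.51% of all genes called in that comparison. It was at 46.8, 38.8, 86.0 and 84.2 CPM under vehicle and 18, 38.5, 8.60 and 6.63 CPM under TCPOBOP, all lower, though the second treated liver was just below the lowest control. The difference was -1.84 ± 0.47 (adjusted p = 0.0449). In wild-type liver Cdkn1a was at 4.10 to 14.1 CPM under vehicle and 15.5 to 20.4 CPM under TCPOBOP (1.06 ± 0.47, adjusted p = 0.16), and its humanized vehicle level was 7.58-fold that of wild-type vehicle (adjusted p = 0.00238).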

How the data were processed

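Whole-liver messenger RNA of 16 mice was sequenced, 4 in each group. The deposited values are whole-number counts for 40458 RefSeq transcript accessions. Per the labels' protocols, poly(A) RNA went into NEBNext libraries, and per the submitters' processing notes STAR, DESeq2 and mm10 were used; the sources used here do not name the counting program, strandedness or multi-mapping rules. Even numbers made up 74.9% of counts from 20 upwards (75% if all had been halved and rounded to even), so precision from counting is approximate. Symbols came from RefSeq for 40219 accessions and GENCODE for 125 more, and 114 stayed without one. Of several accessions of a gene the one with the highest mean was kept (24970 genes).

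edgeR 4.0.16 (R 4.3.3, limma 3.58.1) fitted all 16 libraries with a mean per group, filterByExpr (minimum count 10, about 1.04 CPM), TMM and two-sided quasi-likelihood tests on 12913 genes, with 12 residual degrees of freedom; the common biological variation (BCV) was 0.259. Adjusted p-values are Benjamini-Hochberg values over all genes of a comparison, with 0.05 as threshold. CPM are TMM-scaled; isoforms share reads, and genes that overlap on opposite strands (13 of the 44) cannot be told apart without strand. The fit was tested on simulated data. DESeq2 1.42.0 was 1 of the alternatives.

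The 44 genes, the further lists and the tests were chosen with earlier results of these data known. Values are given for all 44 genes by role, with full statistics for up to 4 called genes a role by rising p in the wild-type comparison, for Mcm10, for up to 3 genes of each further list (1 gene that the rule names is not reported here), and for Nr1i3, Nr1i2, Cyp2b10, Mki67 and Alb; Mcm5, Tk1, Pold1, Gins4, Ccne2 and Cdkn1a were detailed after their values were seen. Mki67 averaged 3.91 CPM in wild-type controls and 36.9 CPM in treated wild-type livers (log2 difference 3.24, adjusted p = 2.63e-06).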

Additional observations from a re-analysis of the deposited data

Results flagged for a closer look

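Of 172 groups of 4 libraries checked (43 genes in 4 groups), 10 held a library whose gap to its nearest neighbour passed Dixon's critical value for 4 samples, where chance gives about 1 in 20. In 4 of these it was the second wild-type vehicle library, the highest of its group for Cdc6 (1.14 CPM), Mcm7 (23.5 CPM), Pcna (35.2 CPM) and Ccne1 (2.85 CPM). The first humanized TCPOBOP library was highest for Gmnn (9.15 CPM) and Ccne2 (4.72 CPM). The third humanized vehicle library was highest for Cdc45 (3.08 CPM), and the second was highest for Pcna (15.1 CPM) and lowest for Rfc5 (6.16 CPM). The first wild-type TCPOBOP library was lowest for Gins2 (5.80 CPM).

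The response to TCPOBOP differed between the strains, by the interaction test in edgeR, for 25 genes. Mcm10 had an interaction of 1.54 on the log2 scale, and the other 24 were negative. For licensing they were -3.76 for Cdc6, -1.21 for Gmnn, -2.78 for Mcm2, -1.91 for Mcm4, -3.02 for Mcm6 and -1.78 for Mcm7. For the helicase, polymerases and primase they were -2.30 for Cdc45, -2.05 for Pola1, -1.04 for Pola2, -2.50 for Prim1, -1.89 for Prim2 and -2.61 for Pole. For the clamp and lagging strand they were -1.59 for Pcna, -1.36 for Rfc3, -1.39 for Rfc4, -0.86 for Rfc5, -1.71 for Fen1 and -2.70 for Lig1. For the remaining genes they were -1.69 for Rrm1, -2.85 for Rrm2, -1.44 for Tyms, -3.13 for Chaf1b, -1.60 for Cdc25a and -4.0 for Clspn.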

How the results depend on the processing

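No called gene among the 44 changed direction in any setting. In the wild-type comparison 34 to 41 genes were higher and 1 lower over 25 settings, and 39 genes, 38 of them higher, were called in each setting that tested them. All genes called there numbered 1691, and 1068 to 2190 with 1 library left out. In humanized liver the count of genes called higher, 0, became 1 with DESeq2 and 0 to 1 with 1 library left out; all genes called went from 324 to 770 with DESeq2, 209 with the replicate block, 182 with only the 2 groups compared, and 74 to 960 with 1 library left out. For the interaction, all genes called went from 963 to 1471 with DESeq2 and 575 to 1782 with 1 library left out, and the genes called lower, 24, ranged from 16 to 36. For the strains under vehicle, genes called lower went from 5 to 2 with library totals only, 3 with thinned libraries, 1 with the replicate block, 1 with only the 2 groups compared and 1 to 6 with 1 library left out; genes called higher ranged from 0 to 1, and all genes called from 2074 to 621 to 3425, with 1 library left out. Causes were not tested. No label says that a replicate number marks shared mice, litters or days, and the numbers were not used as pairs. Same-numbered vehicle and TCPOBOP libraries correlated by 0.098 to 0.581 in wild-type, with 3 of 4 over 0.1. Humanized ones correlated by -0.241 to 0.085. Whether same-numbered wild-type libraries share a batch was not tested. With the replicate block, 40 genes were higher in the wild-type comparison and 19 lower in the interaction. Under library totals only, the median of all genes moved to -0.22 in the interaction, and that of the 43 genes was -2.05.

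Genes near 1 CPM, such as Orc1, Cdc6 and Gins3, rest on few counts in vehicle livers.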

Other observations

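Exons of 13 of the 44 genes overlap exons of a gene on the opposite strand, and 31 overlap none. Besides Gins2, Fen1 and Chaf1a, the largest overlap was 17.4% of the exon bases of Ccne2, with Ints8, which was at 6.75 to 23.5 CPM in wild-type vehicle and 12.8 to 22.8 CPM in wild-type TCPOBOP livers. Gse1, the partner of Gins2, was at 16 to 43.0 CPM and 22.4 to 26.7 CPM, and Ubxn6, the partner of Chaf1a, at 41.2 to 48.6 CPM and 36.5 to 45.7 CPM, ranges that overlap where Gins2 and Chaf1a did not.

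Afmid, which overlaps 1.6% of the exon bases of Tk1, went from 94.4 to 179.5 CPM in wild-type vehicle to 183.6 to 259.9 CPM in wild-type TCPOBOP livers. In humanized livers Afmid was at 180.0 to 197.2 CPM under vehicle and 90.7 to 128.6 CPM under TCPOBOP. Tk1 was likewise lower in all treated humanized livers, though not called. Whether reads of Afmid add to the Tk1 counts was not tested.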
